A study of Macaca mulatta with 252 samples.

Results

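CLMP and CNTN5 code for cell adhesion proteins of the immunoglobulin superfamily, and they are described here across the rhesus macaque brain because both were picked on their high signal in primary visual cortex (V1) in these same arrays. They are 2 of the 14133 genes that the array measures through probe sets with a single gene symbol, and each is read from its brighter probe set. The study profiled RNA from laser-dissected layers and nuclei of adult rhesus monkeys on Affymetrix arrays, and the labels name no treatment. The experimental arrays fall into 57 region groups, of which 54 hold 4 animals and 3 hold 3 animals, with 1 array per animal and group. The groups are layers 2, 3, 5 and 6 of 10 neocortical areas, layer 4 in all of them but anterior cingulate (ACG), orbitofrontal (OFC) and primary motor cortex (M1), 4 fields of the hippocampus and, in the thalamus, 3 parts of the lateral geniculate nucleus (LGN). The other areas are dorsolateral prefrontal (DLPFC), primary somatosensory (S1), primary auditory (A1), secondary visual (V2), middle temporal (MT) and temporal (TE) cortex, and layer 4 of V1 was split into 4A, 4B, 4Ca and 4Cb. The 6 monkeys are called here male A (46 arrays), male B (13), male C (53), female D (52), female E (56) and female F (5). Because both genes were picked for V1, every value that sets V1 against other tissue, and every comparison of layers within V1, is given as a description with no test, and tests are kept to tissue outside V1.

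CLMP, the CXADR-like membrane protein, sits at cell junctions and binds to itself on neighbouring cells, and in brain it has been linked to kainate-type glutamate receptors. CNTN5, contactin 5, is held to the outer face of neurons by a lipid anchor, belongs to the contactin family of axonal adhesion proteins, and binds partners such as the receptor phosphatase PTPRG. Layer 4C of V1 is the main target of axons from the LGN, with the magnocellular stream ending in 4Ca and the parvocellular stream in 4Cb, while layer 6 of V1 sends axons back to the LGN. In the hippocampus the dentate gyrus (DG) holds granule cells, and CA1, CA2 and CA3 hold pyramidal cells.

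Levels are log2 signals as the study's own summary of the probes gave them, so a difference of 1 is a 2-fold difference, and the median over the means of all probe sets was 4.76. The experimental arrays had medians from 4.72 to 5.00. The region labels were checked against known markers: TCF7L2, a transcription factor of thalamic neurons, had means of 12.7 in all 3 LGN groups against at most 11.3 elsewhere, and PROX1, the factor of dentate granule cells, stood at 10.2 in DG against at most 8.30 in the other 56 groups. SYT6, a layer 6 gene, ran from 6.92 to 11.2 in the 10 layer 6 groups and reached 7.15 in the other 40 neocortical groups, so its ranges overlapped. The markers of other layers overlapped too, with CUX2 at 8.79 or more in its layers and up to 9.89 outside them, FEZF2 at 8.36 and 9.14, and RORB at 5.60 and 5.74. The labels do not say in which amplification batch an experimental array was made. A split of the areas by the spread of a hybridisation control put V1, S1, A1, ACG, TE and M1 in a narrow set and V2, MT, OFC, DLPFC, LGN and hippocampus in a wide set, and the poly-A labelling controls averaged 9.93 in V1 and 9.85 in V2 against 8.46 to 9.26 in the 10 other regions. The part of these control levels in the V1 values below was not tested. For areas outside V1 the poly-A level was also fitted as a covariate, and values within a set are given where they exist. In dissected tissue a lower share of a cell type and less RNA per cell cannot be told apart.

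Across the 57 groups CLMP spanned group means from 4.06 in DG to 9.70 in V1 layer 4Cb. After 4Cb, the order from the top was parvocellular LGN at 9.69 ± 0.19 (SD, n = 4), V1 4Ca at 9.55 ± 0.39, magnocellular LGN at 9.41 ± 0.21, koniocellular LGN at 9.35 ± 0.13, V1 layer 6 at 9.28 ± 0.24, V1 4B at 9.04 ± 0.63, V1 layer 5 at 8.94 ± 0.24 and V1 4A at 8.48 ± 0.35. These 9 places were held by V1 and LGN alone. The highest group outside them was CA2 at 8.22 ± 0.32, and the highest in neocortex outside V1 was ACG layer 5 at 8.03 ± 0.31. The lowest neocortical group was TE layer 3 at 5.08 ± 0.26. Only 2 of the 56 steps between neighbours in this order exceeded the larger SD of the pair, the step from V1 layer 5 down to V1 4A and the step from TE layer 3 down to DG, so all other neighbours did not differ beyond their spread.

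CNTN5 spanned means from 3.42 in CA2 to 8.92 in parvocellular LGN. The order from the top was parvocellular LGN (8.92 ± 0.29), V1 4Cb (8.91 ± 0.18), magnocellular LGN (8.49 ± 0.25), koniocellular LGN (8.47 ± 0.38), DG (8.43 ± 0.34), V1 4Ca (7.79 ± 0.49), A1 layer 4 (7.61 ± 0.46, n = 3) and V1 layer 6 (7.30 ± 0.71). The next groups were all layer 2 or layer 4 of other areas, from ACG layer 2 at 7.15 ± 0.69 down to S1 layer 4 at 6.72 ± 0.61, except for A1 layer 3 at 6.79 ± 0.33. The bottom of the order was made of layer 6 outside V1, the CA fields and M1 layer 5, and 13 of the 57 group means lay below the median of 4.76, against 1 for CLMP. Here too 2 of 56 steps exceeded the larger SD, from V1 4Cb to magnocellular LGN and from DG to V1 4Ca.

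**Figure D1:**
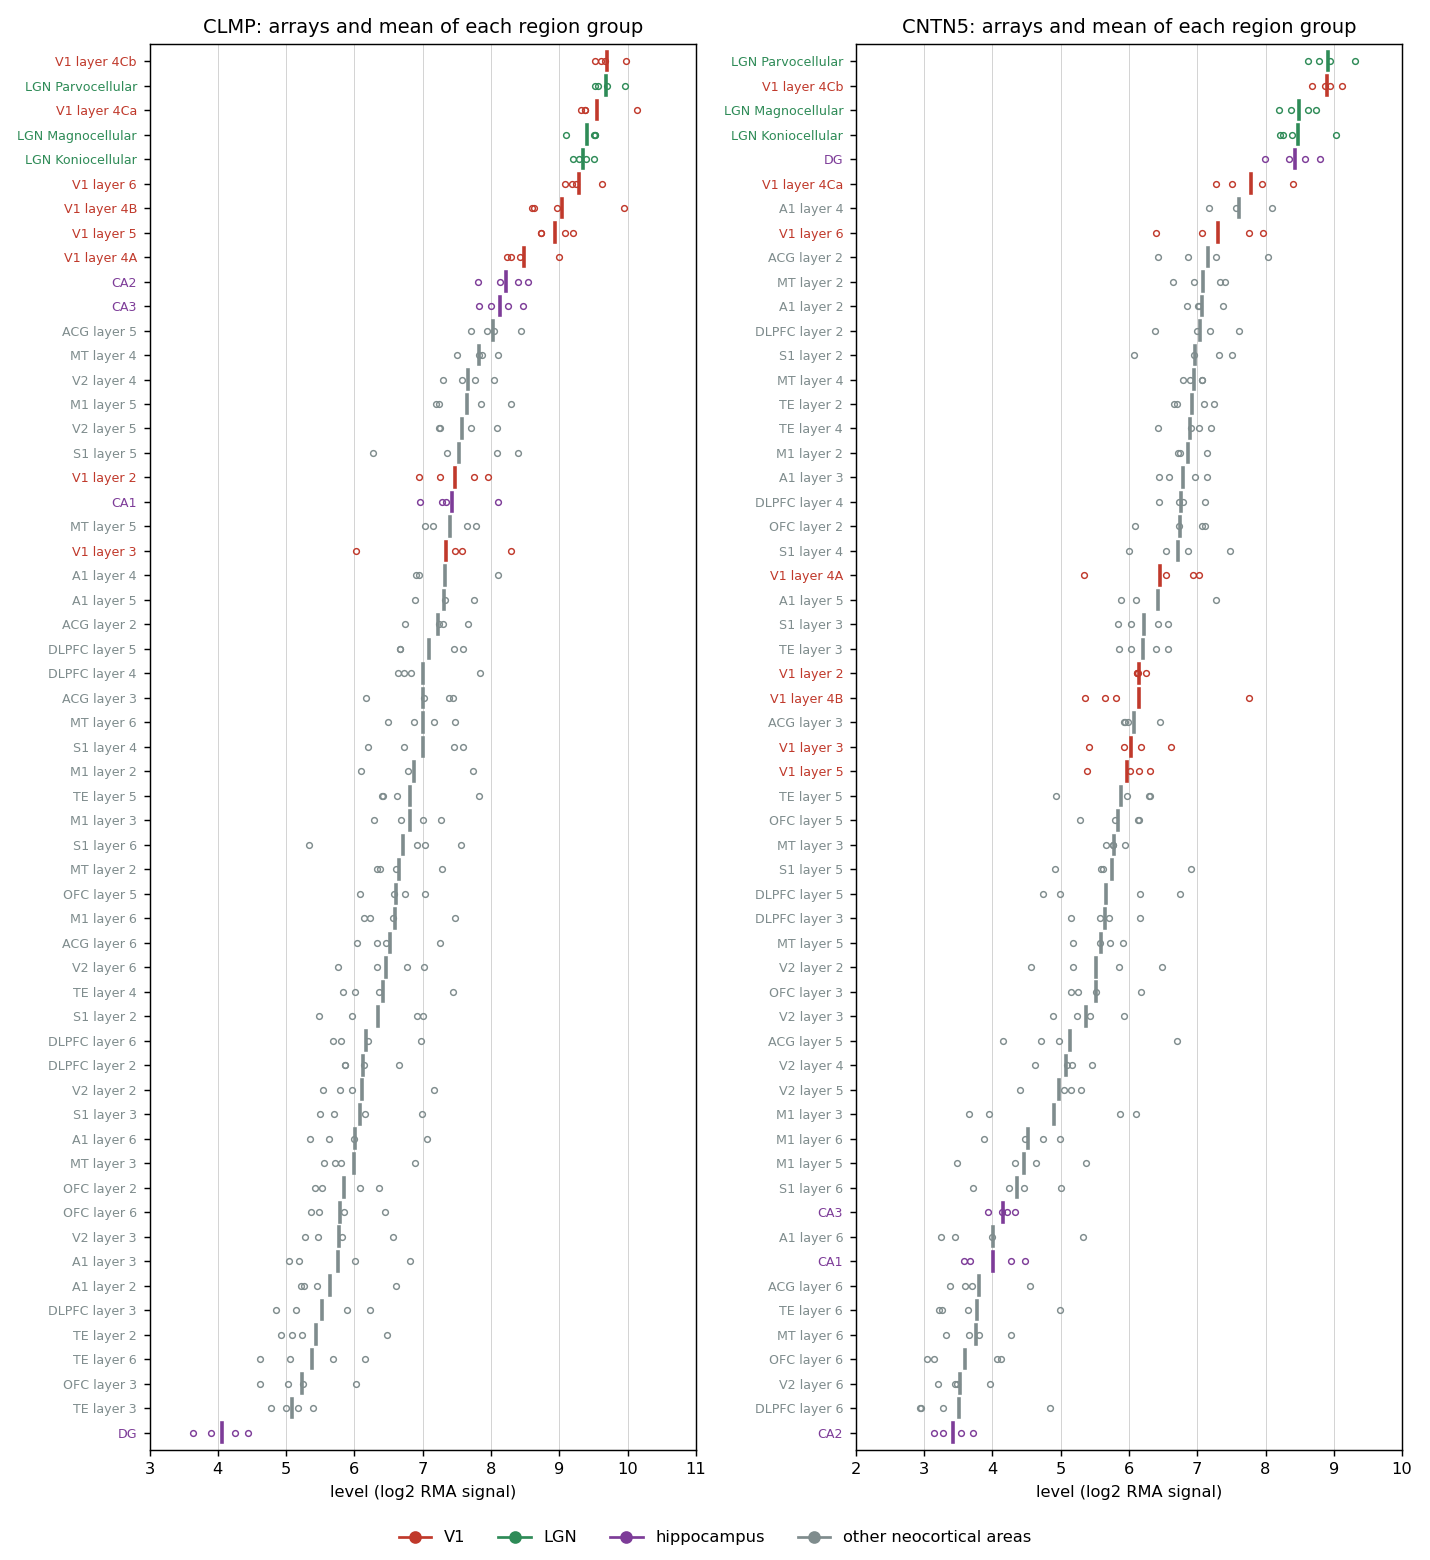
Level (x axis, log2 RMA signal) of CLMP (left) and CNTN5 (right) in each of the 57 region groups (y axis), sorted by group mean; open circles are single arrays and short vertical lines are group means. V1 and LGN fill the 9 highest places for CLMP, with DG lowest at 4.06, whereas for CNTN5 DG is among the 5 highest groups at 8.43 and CA2 is lowest at 3.42.

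In layers 2, 3, 5 and 6, the V1 group mean of CLMP was above those of the 9 other areas. All 4 parts of V1 layer 4 were above layer 4 of the 6 other areas that have one. Averaged over layers 2, 3, 5 and 6, its V1 level was 8.66 in female D, 7.69 in female E, 8.30 in male A and 8.39 in male C, while the same layers of the other areas averaged 7.0, 6.05, 6.28 and 6.34 in these animals. Each of the 4 animals was higher in V1, by 1.84 ± 0.22 on the log2 scale (SD, n = 4), and with comparison areas from the narrow set only, the difference was 1.79. The difference was 1.27 ± 0.33 in layer 2, 1.45 ± 0.61 in layer 3, 1.60 ± 0.19 in layer 5 and 3.01 ± 0.58 in layer 6. In layer 6 the 4 V1 arrays ran from 9.08 to 9.63, and the 36 arrays of the other areas had a lowest value of 4.62, a median of 6.27 and a highest of 7.57. There was also no overlap in layer 5 (8.73 to 9.19 in V1, at most 8.44 elsewhere), whereas V1 layers 2 and 3 overlapped with other areas, whose highest arrays were 7.73 and 7.44.

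CLMP rose from the upper layers of V1 towards 4C, where the 8 arrays of 4Ca and 4Cb stood between 9.32 and 10.1 and the 23 layer 4 arrays of other areas between 5.84 and 8.11. The 4C level exceeded layers 2 and 3 of V1 by 2.22 ± 0.56 and layer 4 of V2 by 1.96 ± 0.22, higher in 4 of 4 animals in both cases. Against layer 4 of S1, A1 and TE, which share the narrow control set with V1, it was higher by 2.82 ± 0.43. Between 4Cb and 4Ca the difference was 0.14 ± 0.21, with female D opposite to the other 3 animals. The V1 layer profile of each animal correlated with the mean profile of the other 3 at r between 0.87 and 0.96 over 8 layers.

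For CNTN5 the V1 excess lay in 4C and layer 6 and was not seen in layer 2. The 4Cb arrays read 8.88 in female D, 8.95 in female E, 8.68 in male A and 9.12 in male C, and the 4Ca arrays 7.28, 7.51, 8.40 and 7.95. The sublayer 4Cb was thus above 4Ca in 4 of 4 animals, by 1.12 ± 0.59. Together 4Ca and 4Cb exceeded layers 2 and 3 of V1 by 2.25 ± 0.25, and layer 4 of V2 by 3.26 ± 0.45, a 9.60-fold difference. Set against layer 4 of all other areas the difference was smaller, 1.75 ± 0.37, and against S1, A1 and TE it was 1.35 ± 0.52. V2 itself was low: its 4 layer 4 arrays read 4.62 to 5.46, while the 19 layer 4 arrays of DLPFC, S1, A1, MT and TE read 6.01 to 8.09. The latter overlapped with 4Ca but not with 4Cb. The 4Ca mean of 7.79 ± 0.49 was above that of A1 layer 4 (7.61 ± 0.46) by less than their SD.

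In layer 6 the CNTN5 arrays of V1 read 6.39 in female D, 7.76 in female E, 7.97 in male A and 7.08 in male C. The 36 layer 6 arrays of the other areas ran from 2.94 to 5.33 with a median of 3.70, so the groups did not overlap. The difference was 3.41 ± 0.98, and 3.18 within the narrow set, against a level below the median of all probe sets, so no fold is given. In layer 2, by contrast, V1 was below the mean of the other areas in 4 of 4 animals, by 0.67 ± 0.32 (SD; V1 6.15, others 6.82). Layers 3 and 5 of V1 differed from the other areas by 0.18 ± 0.39 and 0.45 ± 0.49, less than their spread over animals. The mean over the 4 layers, 0.83 ± 0.41, therefore rests on layer 6. The layers 4A and 4B were more variable than 4C, at 6.46 ± 0.78 and 6.14 ± 1.09, and the 4B array of female D (7.76) stood above the other 3 (5.35 to 5.82).

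**Figure D2:**
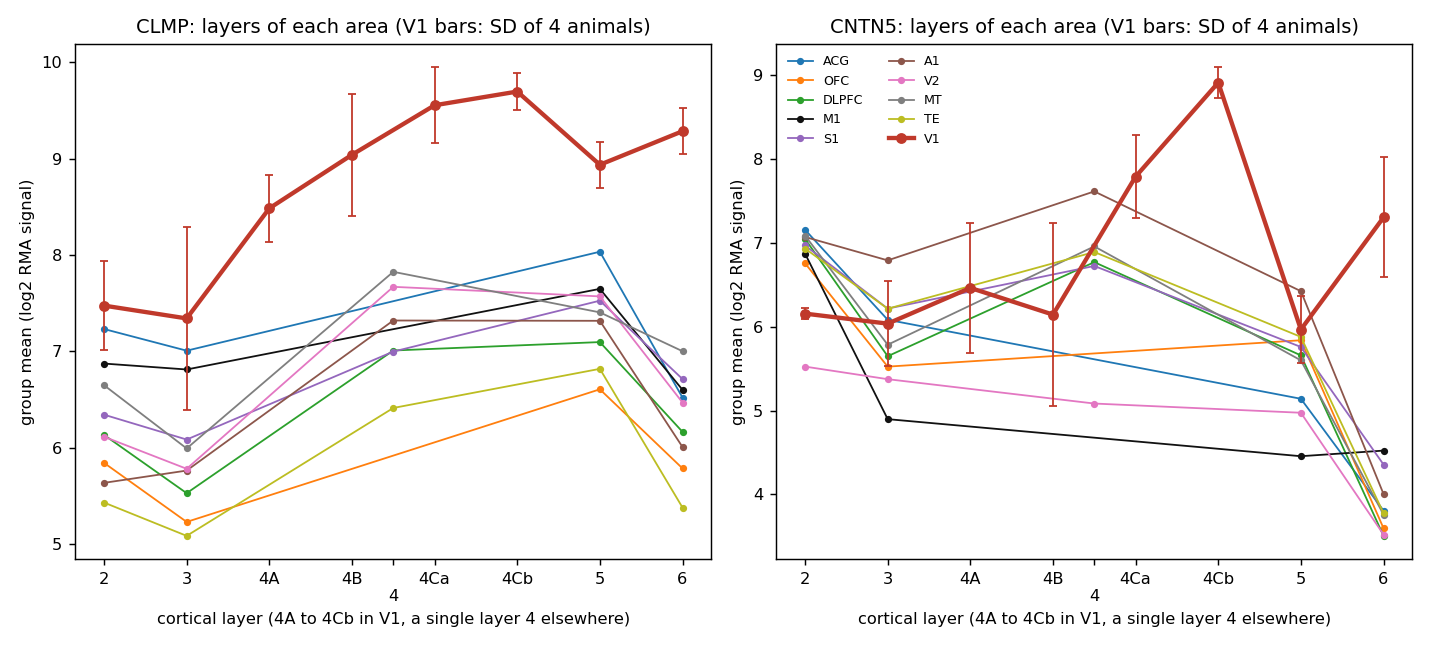
Group means (y axis, log2 RMA signal) of CLMP (left) and CNTN5 (right) by cortical layer (x axis) in 10 areas; V1 is the thick red line with the SD of 4 animals, and areas without a dissected layer 4 have no point there. The V1 line lies above all other areas dissected at that layer for CLMP in every layer. For CNTN5 it does so only in 4C and in layer 6, where the other areas lie between 3.51 and 4.52.

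Among 10300 genes above the median level, CLMP ranked 2nd and CNTN5 23rd in V1 minus other areas over layers 2, 3, 5 and 6, where the median gene was at -0.06. For layer 6 alone CNTN5 ranked 1st and CLMP 3rd, and for 4C against V2 layer 4 CNTN5 ranked 5th and CLMP 31st. The choice of the genes used these contrasts, so the ranks only place them. Cell type markers moved as well: in V1 layer 6, SYT6 was higher than in other layer 6 groups by 3.25 ± 0.29, both oligodendrocyte markers on the array were lower in 4 of 4 animals, by 1.05 ± 0.21 in mean, and 4 of 5 microglial and 4 of 5 endothelial markers were lower in 4 of 4 animals (means over all 5, -0.80 ± 0.15 and -0.37 ± 0.17). PVALB, a marker of a class of inhibitory neurons, read 9.75 ± 0.46 in V1 layer 6 and 6.94 ± 0.35 in layer 6 of the other areas. The inhibitory markers did not move as a set. Of the 3 on the array, 1 was higher and 0 were lower in 4 of 4 animals (mean of the 3, 0.60 ± 0.53, lowest animal -0.16). In 4C against V2 layer 4, the upper layer gene CUX2 was higher by 2.67 ± 0.24 and the layer 5 markers FEZF2 and ETV1 were lower by 1.87 ± 0.38. The part of these markers in the CLMP and CNTN5 values was not tested.

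Outside V1 the genes had different layer profiles, tested over the 6 other areas with a layer 4 (DLPFC, S1, A1, V2, MT and TE) in the 4 animals with at least 3 of these areas. Layer values were averaged per animal after subtracting the mean of the 5 layers in each area, and a change counts as called at a Benjamini-Hochberg adjusted p under 0.05 in limma together with a log2 difference of at least 1. CLMP was lowest in layer 3, at -1.04 in female D, -1.02 in female E, -0.61 in male A and -0.72 in male C, and highest in layers 4 and 5, at 0.57 to 0.86 and 0.67 to 0.87. All 4 animals were below 0 in layers 2, 3 and 6 and above 0 in layers 4 and 5. Layer 3 lay under the average of the remaining layers by 1.06 ± 0.07 (SE; adjusted p = 1.06e-08), a call made for 0.651% of 10299 genes. Layer 3 fell below the fold threshold without female D (-0.98), without female E (-0.99) and in the areas of the narrow set alone (-0.90). With the other CLMP probe set it was -0.12 and did not pass the adjusted p (0.254), and with the mean of both probe sets it was -0.59. Layer 5 was at 0.97 ± 0.07 (adjusted p = 2.55e-08) and layer 4 at 0.85 ± 0.07 (adjusted p = 9.90e-08) against the others, both just short of the fold threshold. The span from the lowest to the highest layer was 1.63 (adjusted p = 8.11e-11), with 6.61% of genes called for a layer difference.

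CNTN5 fell in layer 6 of these areas. Relative to the mean of the layers it stood at -1.51 in female D, -2.21 in female E, -1.95 in male A and -2.04 in male C, the lowest layer in each of them. Layer 6 was lower than the other layers by 2.41 ± 0.12 (SE; adjusted p = 1.64e-11), with 1.63% of 10299 genes called. Layer 2 was higher by 1.17 ± 0.12 (adjusted p = 1.33e-07, 2.71% called) and layer 4 by 1.01 ± 0.12 (adjusted p = 2.48e-06, 0.777% called). The layer 4 value is at the edge of the fold threshold: it was 0.91 without female E, 0.97 without male A, 0.99 after quantile normalization and 0.87 in the wide set alone. Female D had the smallest departures of the 4 animals in layer 4 and in layer 6. Layer 3 (0.31 ± 0.12, adjusted p = 0.0589) and layer 5 (-0.08 ± 0.12, adjusted p = 0.701) did not pass.

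**Figure D3:**
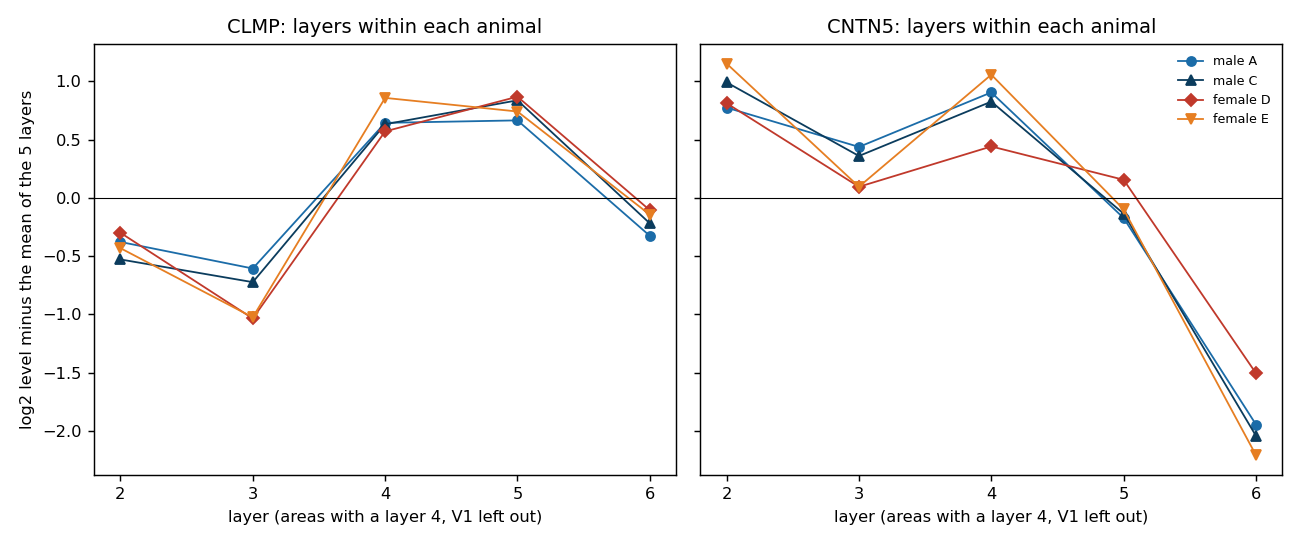
Level in each layer minus the mean of the 5 layers (y axis, log2) by layer (x axis) for CLMP (left) and CNTN5 (right), averaged over the areas with a layer 4 other than V1; each line is 1 of 4 animals. CLMP dips in layer 3 and peaks in layers 4 and 5, and CNTN5 drops to between -1.51 and -2.21 in layer 6.

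With all 9 areas outside V1, the deep layers (5 and 6) were set against the upper layers (2 and 3) in 5 animals. CNTN5 read 4.38 to 5.02 in the deep layers and 6.13 to 6.46 in the upper layers, without overlap, and was lower in the deep layers by 1.65 ± 0.06 (SE; adjusted p = 6.53e-08), where 2.15% of 10317 genes were called. CLMP read 6.49 to 7.39 in the deep layers and 5.61 to 6.60 in the upper layers. Its difference of 0.70 ± 0.07 had an adjusted p of 4.14e-05 and did not reach the fold threshold. Among the 9 areas the deep-minus-upper difference of CLMP ran from 0.18 in ACG to 1.14 in A1, and that of CNTN5 from -2.20 in ACG to -1.20 in V2. Neither spread passed (adjusted p = 0.234 and 0.704, with 1.19% of genes called), so no difference of the laminar profile between areas was shown.

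Which areas outside V1 carried more of each gene was tested on the mean of layers 2, 3, 5 and 6. Fitted CLMP means ran from 5.65 in TE and 5.66 in OFC through 6.45 in V2 to 6.94 in M1, 7.03 in MT and 7.08 in ACG, a span of 1.44 (adjusted p = 3.24e-07; 6.85% of genes called). TE read 6.41 in female D, 5.45 in female E, 5.42 in male A and 5.44 in male C. ACG read 7.58 in female D, 7.18 in female E, 6.77 in male A and 7.26 in male B, so these areas did not overlap. At adjusted p alone, ACG (0.78 ± 0.14, 32.2% of genes), MT (0.72 ± 0.16, 10.9%) and M1 (0.62 ± 0.16, 13.9%) were above the other areas, and OFC (-0.82 ± 0.14, 22.1%) and TE (-0.83 ± 0.14, 8.82%) below them. With the poly-A level as a covariate OFC was at -0.62 and no longer passed (adjusted p = 0.0608). No single area reached the fold threshold, apart from TE at -1.04 when the narrow set was fitted alone. V2, the area next to V1, did not stand out for CLMP (0.07 ± 0.14, adjusted p = 0.668).

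CNTN5 differed less between areas, with fitted means from 4.81 in V2 to 6.07 in A1. The span of 1.26 had an adjusted p of 0.0125. That call was lost without female D (1.11, adjusted p = 0.0606), without female E (1.40, 0.0658) and without male A (1.19, 0.0850), and within either control set. V2 was the low area, at 4.64 in female D, 4.92 in female E, 4.47 in male A and 5.36 in male C, and lay below the other areas by 0.79 ± 0.19 (adjusted p = 0.00129). At an adjusted p under 0.05 alone, 47.8% of genes passed in V2, so passing it was common there. With the poly-A level as a covariate V2 was at -0.69 and no longer passed (adjusted p = 0.179). A1 was at 0.63 ± 0.22 above the others (adjusted p = 0.0746).

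Both genes were high in the LGN, the thalamic relay to V1. CLMP read 9.36 in female D, 9.47 in female E, 9.45 in male A and 9.66 in male C in the mean of the 3 divisions, against 7.08, 6.25, 6.32 and 6.46 in the neocortex outside V1 of these animals. CNTN5 read 8.85, 8.41, 8.60 and 8.65 in the LGN and 5.84, 5.72, 5.49 and 5.61 in that neocortex. LGN and neocortex did not overlap for either gene. LGN minus neocortex was 2.96 ± 0.13 for CLMP (SE; 7.76-fold, adjusted p = 3.94e-09) and 2.96 ± 0.12 for CNTN5 (7.78-fold, adjusted p = 1.46e-09), calls that 3.61% of 10309 genes shared in this direction. With only the neocortical areas that share the wide control set with the LGN, the values were 2.90 and 3.21. Marker levels also differed in the LGN: the 2 oligodendrocyte markers were higher by 1.40 ± 0.18 (SD) and the 3 excitatory cortical markers lower by 2.33 ± 0.07, and their part in the result was not tested.

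Between the LGN divisions, CLMP was 9.69 in the parvocellular, 9.41 in the magnocellular and 9.35 in the koniocellular group, and CNTN5 was 8.92, 8.49 and 8.47. Neither span passed the test (0.34, adjusted p = 0.277, and 0.45, adjusted p = 0.310; 0.399% of 10276 genes were called). For CLMP, 3 of the 4 magnocellular arrays lay within 9.51 to 9.53 and female D at 9.10. As a description, the LGN mean differed from V1 4C of the same animals by -0.14 ± 0.40 for CLMP and by 0.28 ± 0.33 for CNTN5, both smaller than their SD, although the LGN was higher in 4 of 4 animals for CNTN5.

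In the hippocampus the genes ran in opposite directions. In DG, CLMP read 4.25 in female D, 3.63 in female E, 3.89 in male A and 4.45 in male C, whereas its 12 values in CA1, CA2 and CA3 lay between 6.97 and 8.55. CNTN5 did the opposite, reading 8.80, 8.35, 8.58 and 7.99 in DG and 3.14 to 4.48 in the CA fields. Neither gene had any overlap between DG and the CA fields. CLMP was lower in DG by 3.87 ± 0.16 (SE; adjusted p = 7.09e-11), and CNTN5 was higher by 4.57 ± 0.14 (adjusted p = 3.21e-12). Of 10249 genes, 10.3% were called. The low levels, CLMP in DG and CNTN5 in the CA fields, lie below the median of all probe sets and no detection calls were used here, so no fold is given. CNTN5 was bright enough to test only through DG, with a mean of 5.00 over the 16 hippocampal arrays. Its adjusted p therefore adds no support beyond the values themselves. DG held less signal of the 2 oligodendrocyte markers, lower by 2.46 ± 0.24 (SD). The mean of the 3 excitatory cortical markers was lower by 2.20 ± 0.28, with 2 of 3 lower in 4 of 4 animals. The astrocyte markers went both ways, 2 of 3 higher and SLC1A2 lower in 4 of 4 animals (mean of the 3, 0.95 ± 0.28), PROX1 was higher by 3.64 ± 0.25, and the part of these markers in the result was not tested.

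Among the CA fields, CLMP was highest in CA2 (8.22 ± 0.32 SD) and CA3 (8.13 ± 0.28) and lower in CA1 (7.42 ± 0.48). CA2 was above the mean of the other 3 fields by 1.68 ± 0.16 (SE; adjusted p = 2.45e-06, 2.80% called) and CA3 by 1.57 ± 0.16 (adjusted p = 4.99e-06, 2.94% called), means that include the low DG. Both calls rest on the brighter probe set: with the other one CA2 was at 0.20 (adjusted p = 0.156) and CA3 at 0.14 (adjusted p = 0.375), and with the mean of both at 0.94 and 0.85. CNTN5 was at 4.16 ± 0.17 (SD) in CA3, 4.00 ± 0.44 in CA1 and 3.42 ± 0.26 in CA2, all below the median of all probe sets. For the hippocampus as a whole, CLMP was 0.43 ± 0.13 above (SE; adjusted p = 0.0184) and CNTN5 0.66 ± 0.12 below (adjusted p = 0.000626) the neocortex outside V1, both under the fold threshold that 5.97% of genes passed, and these means average DG with CA fields that lie far from it.

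**Figure D4:**
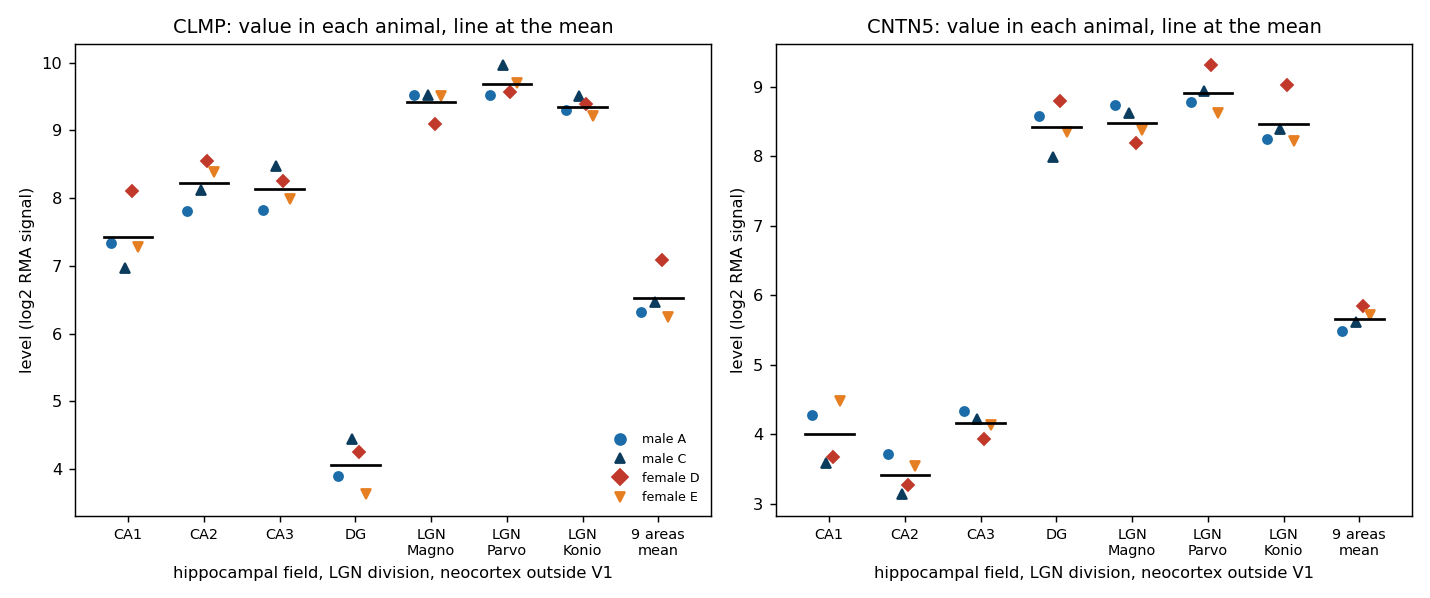
Level (y axis, log2 RMA signal) of CLMP (left) and CNTN5 (right) in the hippocampal fields, the LGN divisions and the mean of the 9 neocortical areas outside V1 (x axis); symbols are 4 animals and black lines their means. DG is the lowest column for CLMP (3.63 to 4.45) and among the high columns for CNTN5 (7.99 to 8.80), and the LGN is high for both.

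Female D was above the mean of the other animals of its group in 47 of 52 groups for CLMP, by 0.68 ± 0.50 (SD over groups), and was the highest animal in 38 of them. Female E was below in 47 of 56 groups, by 0.38 ± 0.41. For CNTN5 the mean deviation of female D was 0.20 ± 0.79, above in 31 of 52 groups. Males A and C averaged 6.49 and 6.86 for CLMP against 7.34 and 6.60 in females D and E, and 5.72 and 5.74 for CNTN5 against 5.92 and 5.74. Male minus female was -0.30 ± 0.28 (SE; adjusted p = 0.832) and -0.10 ± 0.08 (adjusted p = 0.810) over groups outside V1 that all 4 animals share. In limma 0 of 10319 genes (0.00%) passed the adjusted p, 772 had an unadjusted p under 0.05, and the sexes were 2 animals each.

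On the 158 neocortical arrays of layers 2, 3, 5 and 6, area accounted for 45.1% of the variance of CLMP and layer for 24.7%. For CNTN5 the order was turned, with 10.9% for area and 51.8% for layer, and another 20.2% for their combination. The medians over all genes were 19.0% for area, 6.18% for layer and 13.3% for the combination. Animal accounted for 11.5% in CLMP and 0.899% in CNTN5 (median 5.30%). V1 is included, so part of the area share is the difference for which the genes were chosen.

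As a description over group means, which share animals and arrays, Pearson's r between them was 0.29 over 57 groups, 0.15 over the 49 groups outside V1 and 0.04 over the 42 neocortical groups outside V1. Over the 8 layers of V1 it was 0.71.

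**Figure D5:**
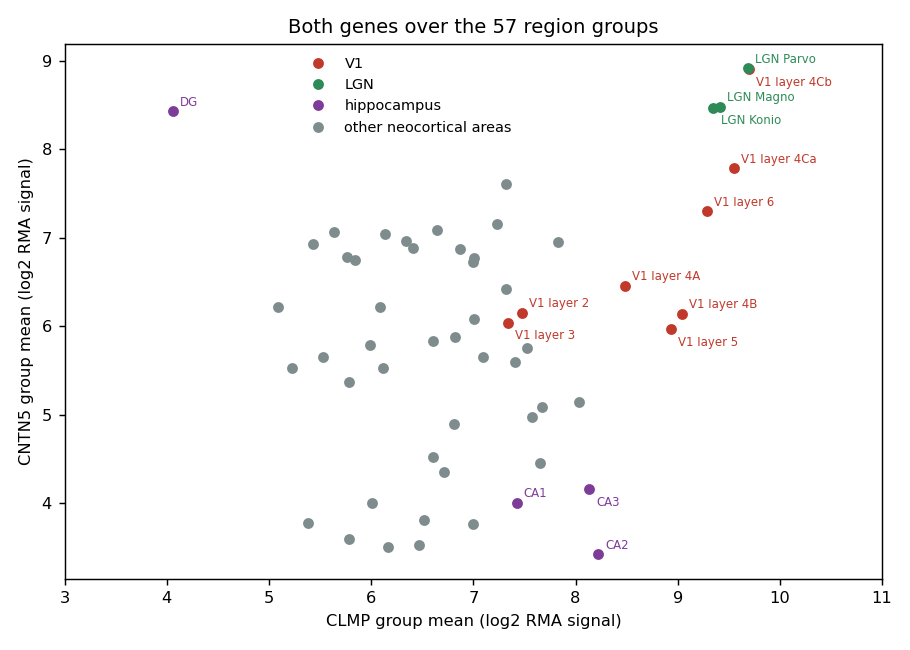
Group means of CLMP (x axis) and CNTN5 (y axis), both in log2 RMA signal, for the 57 region groups coloured by structure. The LGN divisions and V1 4Cb share the upper right corner, DG lies alone at low CLMP and high CNTN5, and the CA fields lie at high CLMP and low CNTN5.

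Genes of the same families and partners were read from short lists. Of the other contactins, 4 of 5 were on the array and CNTN1, CNTN3 and CNTN6 were bright enough to test. CNTN6, a contactin of developing and adult neurons, was lower in V1 than in the other areas by 1.34 ± 0.11 (SE; adjusted p = 6.78e-11; 1.19% of 10309 genes were called), and CNTN1 (0.06 ± 0.12) and CNTN3 (-0.80 ± 0.12) were not called; the median of these 3 was -0.80, against -0.06 over all genes. In layers outside V1, CNTN6 was higher in layer 6 by 1.10 ± 0.10 (adjusted p = 4.28e-08), the layer where CNTN5 was lower by 2.41, although within the narrow set alone it was at 0.98. In DG, CNTN6 was higher by 2.96 ± 0.14 (adjusted p = 2.65e-10), with CNTN5 at 4.57. The hippocampal mean that let CNTN6 be tested includes DG, and its level without DG was not checked. Its adjusted p is therefore not taken as support beyond the value. Against neocortex, the LGN was lower for CNTN3 by 1.40 ± 0.09 (adjusted p = 8.68e-08), and CNTN6 was at -0.76 ± 0.09 and CNTN1 at -0.47 ± 0.10, so none of the 3 was called higher there. At an adjusted p under 0.05 alone, 6454 of 10309 genes passed in LGN minus neocortex, in either direction, so passing it was common. The hippocampus as a whole was lower than neocortex for CNTN6 by 2.00 ± 0.09 (adjusted p = 1.58e-08) and for CNTN3 by 1.25 ± 0.09 (adjusted p = 5.14e-07). Both also differed between areas outside V1, CNTN6 with a span of 1.64 (adjusted p = 2.40e-08) and CNTN3 with 1.35 (adjusted p = 3.25e-06), calls that the wide set alone did not give (0.89 and 0.97). CNTN6 was low in V2 (-1.03 ± 0.11, adjusted p = 7.63e-08), but at -0.94 after quantile normalization and -0.79 in the wide set. It was higher in the deep than in the upper layers by 1.16 ± 0.10 (adjusted p = 1.44e-05), the opposite direction to CNTN5. Within the hippocampus, CNTN6 was lower in CA1 (-1.66 ± 0.14, adjusted p = 6.30e-07) and CA2 (-1.54 ± 0.14, adjusted p = 1.63e-06). CNTN3 was higher in CA1 (adjusted p = 6.31e-05) and lower in CA2 (-1.51 ± 0.15, adjusted p = 3.19e-06). At an adjusted p under 0.05 alone, 3101 of 10249 genes passed in CA1, so passing it was common there. In CA2, 2.80% of genes were called. Each field was set against the mean of the other fields, which for CA1 and CA2 includes DG with its high CNTN6.

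Of the contactin-associated proteins, which form axonal and synaptic complexes with contactins, 3 of 5 were tested. In LGN minus neocortex CNTNAP5 was called lower (-1.47 ± 0.08, adjusted p = 1.58e-08), and CNTNAP2 (-0.42 ± 0.09) and CNTNAP4 (0.22 ± 0.18) were not. The adjusted p alone was passed there by 6454 of 10309 genes, in either direction. In DG, CNTNAP2 was lower by 1.15 ± 0.10 (adjusted p = 2.79e-07), and the other 2 were not called. CNTNAP4 and CNTNAP5 had layer spans of 1.04 and 1.29 (adjusted p = 7.11e-07 and 4.91e-11), under the fold threshold in the narrow set for the former (0.97) and in the wide set for the latter (0.99). None was called in V1 (median 0.22). In CA1, CNTNAP4 was lower than in the other fields by 1.41 ± 0.20 (adjusted p = 9.29e-05) and CNTNAP5 higher by 1.32 ± 0.14 (adjusted p = 7.34e-06). The adjusted p alone was passed by 3101 of 10249 genes in CA1. The hippocampus was below neocortex for CNTNAP4 by 1.22 ± 0.18 (adjusted p = 0.000196). The deep-minus-upper difference of CNTNAP5 varied between areas by 1.18 (adjusted p = 0.000778), a call lost without female D (0.98), female E (adjusted p = 0.110) or male C (adjusted p = 0.0844) and within either control set. Of the contactin partners, PTPRG, the phosphatase that binds CNTN5, and L1CAM, a neuronal adhesion protein, were tested in neocortex. Neither was called for V1, for layers or for LGN minus neocortex, where PTPRG was at -0.62 ± 0.07. PTPRZ1, a phosphatase of glia that binds CNTN1, was tested in the hippocampus only and was higher in DG by 1.32 ± 0.23 (adjusted p = 0.000202). The mean that let PTPRZ1 be tested includes DG, and its level without DG was not checked. Its adjusted p is therefore not taken as support beyond the value.

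Of the CLMP relatives, 3 of 10 were tested, namely the junction proteins F11R, IGSF11 and VSIG2. None was called in any of the comparisons outside V1 or in V1 minus other areas, where their values were -0.38 ± 0.07, -0.61 ± 0.07 and -0.07 ± 0.06. With 1.19% of all genes called in V1 and at most 10.3% in the comparisons above, 0 of 3 is near the background. Of the kainate receptor subunits, GRIK1 was tested throughout and GRIK2 in the hippocampus. GRIK1 differed between layers outside V1 by a span of 1.36 (adjusted p = 1.19e-08). In DG, GRIK1 was lower by 2.78 ± 0.11 (adjusted p = 6.91e-11) and GRIK2 higher by 2.04 ± 0.10 (adjusted p = 5.08e-10), with CLMP lower by 3.87 there. The mean that let GRIK2 be tested includes DG, and its level without DG was not checked. Its adjusted p is therefore not taken as support beyond the value. In CA2, where CLMP was highest of the fields, GRIK1 was above the mean of the other fields by 1.25 ± 0.11 (adjusted p = 1.81e-06). That mean includes DG with its low GRIK1, so the value is not a difference from CA1 and CA3 alone. In the LGN, GRIK1 was lower than in neocortex by 1.26 ± 0.09 (adjusted p = 2.05e-07), where CLMP was higher by 2.96. The adjusted p alone was passed in that comparison by 6454 of 10309 genes, in either direction. In V1 GRIK1 was at -0.52 ± 0.10, not called. Of 4 tested scaffolds of tight junctions (CGN, MAGI1, MPDZ, TJP1), MAGI1 alone was called, with a layer span of 1.12 (adjusted p = 4.99e-09) and a hippocampal level below neocortex by 1.65 ± 0.08 (adjusted p = 2.82e-08), calls that 6.61% and 5.97% of all genes shared. These lists are short and their medians stand for 1 to 4 genes.

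The genes whose group means most resembled those of CLMP over the 57 groups, out of 9633, were NUBP2 (Pearson's r = 0.80), FAM3A (0.75), ADM (0.75), DDT (0.73) and CCDC69 (0.73), and the most opposite were CA10 (-0.84), ABLIM3 (-0.83) and VSTM2L (-0.81). Over the 49 groups outside V1 they were NUBP2 (0.80), GBA2 (0.77), NDUFA10 (0.76), TRPT1 (0.75) and EOLA2 (0.75). For CNTN5 they were NFIL3 (0.79), MSANTD4 (0.76), CD5L (0.75), IMMP2L (0.74) and RADIL (0.73), with PTP4A2 (-0.72), INF2 (-0.71) and TMSB4X (-0.71) most opposite, and outside V1 KCNA4 (0.79), PDE3B (0.78), NFIL3 (0.78), WNT3 (0.77) and DSTYK (0.77). NUBP2 and NFIL3 appear in both of the lists for their gene. The V1 groups of NUBP2 were 0.24 above its other groups and those of NFIL3 0.26, and the groups share animals, so the correlations describe likeness of pattern only.

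Each gene has a second, dimmer probe set. That of CLMP had a mean of 5.01 against 7.04 and correlated with the one used at r = 0.65 over the experimental arrays. It gave the same direction with smaller values: V1 minus other areas was 0.28, DG minus the CA fields -0.60 (adjusted p = 0.000158, under the fold threshold) and LGN minus neocortex 1.00 (called). Its layer span (0.22, adjusted p = 0.0796), layer 3 (-0.12), CA2 (0.20) and CA3 (0.14) did not pass the adjusted p. That of CNTN5 had a mean of 3.69 against 5.94, at the 17.6th percentile of all probe sets, and r = 0.09, and it was below the level at which genes were tested. CNTN5 values therefore rest on 1 probe set. Both genes lie on the same chromosome of the RefSeq gene list for rhesus with 190 protein-coding genes between them. The nearest measured neighbour on each side of CLMP was HSPA8, at 0.04 in V1 minus other areas and 0.25 in LGN minus neocortex, and SCN3B, at -1.02 and -4.10. Those of CNTN5 were JRKL, at 0.49 and 0.42, and ARHGAP42, at -0.20 and 0.13.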

How the data were processed

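Expression was measured on Affymetrix rhesus arrays with 52865 probe sets, 225 experimental and 27 control arrays. Per the file headers, the authors deposited log10 values made by RMA within each batch in Matlab 2007 and then batch-normalized per probe on the whole brain controls; these were converted to log2, where log2 had been assumed in the design. The submitters' processing notes name RMA. A gene is its single-symbol probe set with the highest mean, and genes above the median of all probe sets were tested. Depth has no meaning for arrays, and their number limits the precision.

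Units were means per animal, and single arrays in the hippocampal fields and LGN divisions. In the comparisons between areas a unit was 1 mean per animal and area, with 3 animals for A1 and M1 and 4 for each other area. Not every animal had every area there. Units were fitted in limma 3.58.1 (R 4.3.3, data.table version 1.17.8) with animal as a fixed block, since groups share animals. Arrays of the same animal had a median correlation of deviations of 0.17, and different animals -0.05. p-values were adjusted over all genes tested by the Benjamini-Hochberg method. Fits were tested on simulated data. Named genes are CLMP and CNTN5, the genes with the most like and most opposite group means, and the called members of the lists. The members, lists and marker genes were chosen with earlier results of these data known. Alternatives were the filter, quantile normalization, the other probe set, the mean of both, each animal left out, the block, the control sets and the poly-A level. The split into control sets, the V1 alternatives, and the layer and structure fits within a control set were chosen after seeing the data. Sequences and coordinates are not used here.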

Additional observations from a re-analysis of the deposited data

Results flagged for a closer look

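Single arrays that stood far from the other 3 of their group were looked for in 108 groups of 4 over both genes, where chance gives about 1 in 20, and 7 were found. For CLMP, female D read 6.61 in A1 layer 2 (others 5.22 to 5.45), 7.83 in DLPFC layer 4 (6.64 to 6.83), 7.83 in TE layer 5 (6.40 to 6.62) and 10.1 in V1 layer 4Ca (9.32 to 9.38), each above the others, and 9.10 in magnocellular LGN (9.51 to 9.53), below them. For CNTN5, female D read 6.45 in ACG layer 3 (5.93 to 5.99) and male C 6.25 in V1 layer 2 (6.11 to 6.13). Of the 7, 6 are arrays of female D, the animal with the highest CLMP in 38 of its 52 groups; the cause was not tested.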

How the results depend on the processing

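Over the alternatives run for the main comparisons of CLMP and CNTN5, 219 values kept their side of the threshold and 11 lost a call. Another 11, descriptions in V1, moved by more than the spread over animals, and 0 called values reversed. A change of sign without a call was not counted. Male minus female of CLMP, not called, ran from -0.69 to 0.16 with each animal left out. With the other probe set, CLMP had a layer span of 0.22, an area span of 0.64 and a hippocampal span of 0.65, and its V1 descriptions were 0.28 (layers 2, 3, 5 and 6), 0.64 (layer 6) and 0.61 (4C minus V2 layer 4). With the mean of both probe sets these were 0.91 and 0.89 for layers and areas, and 1.06, 1.83 and 1.28 for V1. The V1 descriptions of CNTN5 were 0.35, 0.31 and 0.30 with the other probe set, and with the mean of both 1.86 (layer 6) and 1.78 (4C minus V2 layer 4). The other CNTN5 probe set was too dim to be tested. The area span of CNTN5 lost its call within the narrow set (0.78, adjusted p = 0.196), the wide set (0.78, adjusted p = 0.261) and with the poly-A level as a covariate (1.16, adjusted p = 0.0985); leaving out each animal gave 1.11 to 1.40. Counts over all genes moved too, from 707 genes with an area span called to 288 and 145 within the sets, where fewer areas enter. Fits without the replicate block changed no call for the 2 genes (CLMP area span 1.52, CNTN5 1.32), but called 5 genes for a span between LGN divisions in place of 41; the cause was not tested. Signal over background limits CNTN5 in layer 6 outside V1 and in the CA fields, and CLMP in DG.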

Other observations

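The 27 control arrays enter no comparison. In the 9 control arrays labelled as CA3, which carry the animal code of male C, CLMP read 6.77 ± 0.29 (SD) and CNTN5 6.61 ± 0.26, against 8.13 ± 0.28 and 4.16 ± 0.17 in the 4 experimental CA3 arrays, without overlap for either gene; the CA3 array of male C read 8.47 and 4.21. TCF7L2, the thalamic marker, read 10.80 ± 0.20 in these control arrays and 8.57 ± 0.41 in the experimental CA3 arrays, while PROX1 read 6.58 ± 0.18 and 6.51 ± 0.23. In the 15 whole brain pool arrays CLMP was 6.31 ± 0.18 and CNTN5 5.28 ± 0.35, and in the 3 MT control arrays 7.09 ± 0.16 and 5.82 ± 0.31. TCF7L2 was near its CA3 control level in these too, at 10.58 ± 0.13 in the pool and 10.72 ± 0.07 in the MT controls.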
